A study of Drosophila melanogaster with 3 samples.

Results

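The cytosolic ribosome of Drosophila melanogaster is built from ribosomal RNA and a large set of proteins, most of which are encoded by 1 main gene each. The genes described here are those whose symbol starts with RpL (large subunit) or RpS (small subunit), after leaving out 5 names with -like and the copies RpL37b, RpS19b, RpS10a, RpS5b, RpS14b, RpL34a, RpS15Ab, RpL10Aa and RpS28a. The rule gave 78 genes of the 92 RpL and RpS names, out of 17509 genes listed for the unsexed library and 17753 for each sexed library. They comprise 47 large-subunit and 31 small-subunit genes. On build BDGP6, 13 lie on the X chromosome, 17 on 2L, 17 on 2R, 14 on 3L, 16 on 3R and 1, RpS3A, on chromosome 4.

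Ribosomal proteins are made in near-equal amounts and assembled with ribosomal RNA in the nucleolus, and their mRNAs are among the most abundant of any growing cell. Fly embryos start with ribosomes and ribosomal protein mRNAs loaded by the mother. Pole cells, the precursors of the germline, are transcriptionally silent when they form, in part through the maternal RNA pgc, and begin zygotic transcription after pgc is lost. Many ribosomal protein genes are known in flies as Minute loci, at which the loss of 1 copy slows growth.

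Sorted embryonic cells were profiled in 3 groups, with 1 library in each. The unsexed library came from vas-GFP embryos of 0 to 8 h and the 10x Chromium 3' kit version 2. The female and male libraries came from vas-GFP, Sxl-GFP embryos of 5 to 8 h and kit version 3. Cells were sorted for GFP. The vas reporter marks germ cells, and Sxl is expressed in somatic cells of female embryos. Clusters made without any RpL or RpS gene were called germ-cell-like from germ cell markers (vas, pgc, nos, gcl, ovo, zpg, aub, bru1, Phf7 and piwi), which left 3248 of 3657 cells (88.8%) among unsexed, 1070 of 9430 (11.3%) among female and 4847 of 6329 (76.6%) among male cells. The remaining cells are called other cells. Germ markers summed to 1877 to 2855 UMIs per 1000000 (CPM) in germ-cell-like cells and to 170 to 342 CPM in other cells, with all 10 detected in both classes of each library. In the count matrices used here, the median depth per germ-cell-like cell was 16559.5, 18379 and 7440 UMIs in the unsexed, female and male library. It was 3723, 6906 and 3543 UMIs per other cell. A second deposited count table of each sexed library, described below, held more UMIs in the same barcodes. One barcode was shared by the unsexed and female libraries, and 17 by the female and male libraries. With 1 library per group no difference has a replicate check, no test was run, and every interval covers counting error only. Cells of 1 library are not replicates.

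Stage was read from pgc itself. Germ-cell-like cells with at least 1000 CPM of pgc are called pgc-high, those from 100 up to 1000 CPM pgc-middle and those under 100 CPM pgc-low. The unsexed library held 900, 857 and 1491 such cells, the female library 76, 248 and 746, and the male library 412, 1235 and 3200. At the median depth of the male cells a single pgc UMI exceeds 100 CPM, so in cells of that depth pgc-low means that no pgc UMI was found. The summed germ markers were lower at each later stage, at 5850, 1937 and 1593 CPM among unsexed, 4018, 2314 and 1649 CPM among female and 4131, 2048 and 1584 CPM among male cells, with pgc itself among them.

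The 78 genes made up 29.5% to 33.2% of the UMIs of germ-cell-like cells at every stage and library, and 35.6% to 40.0% of those of other cells. In the unsexed library their share was 31.7% in pgc-high, 32.7% in pgc-middle and 33.2% in pgc-low cells. The share was 30.4%, 29.9% and 31.8% in the female library at the same stages, and 29.8%, 29.5% and 31.7% in the male library. It was 40.0% in other cells of the unsexed library, 36.5% in female and 35.6% in male other cells. The exact (Clopper-Pearson) 95% interval for the smallest class, the 76 female pgc-high cells, ran from 30.3% to 30.5%. The pgc-low value was the highest germ cell value of each library, and the other cells of the same library were above it in each case. Single cells spread far more than these means: the interquartile range was 30.1% to 35.2% over unsexed germ-cell-like cells and 34.5% to 42.6% over unsexed other cells. A share of UMIs does not give RNA per cell, so a higher share of the members and a lower level of all other transcripts cannot be told apart.

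**Figure D1:**
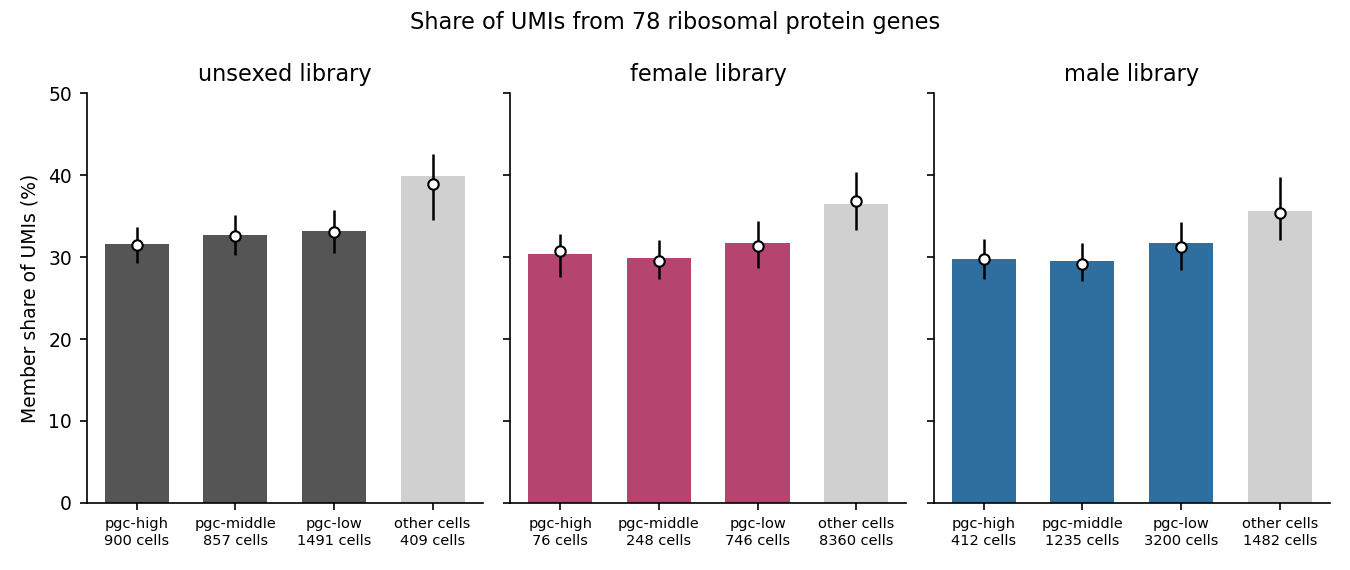
Share of non-mitochondrial UMIs from the 78 genes (percent, bars), by pgc level of germ-cell-like cells and in other cells of the 3 libraries, with cell numbers below. Circles and lines are the median and interquartile range of single cells, not errors of the bars; pgc-low bars reach 33.2%, 31.8% and 31.7%, and other cells 40.0%, 36.5% and 35.6%.

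Levels differed widely between genes within a library. Each molecule gives 1 tag near its 3' end, so CPM values were not divided by transcript length. In unsexed germ-cell-like cells the most abundant were RpL39, a short protein that lines the exit tunnel, with 12677 CPM, RpL41, the smallest ribosomal protein, with 10245 CPM, RpL27A with 8094 CPM, RpS25 with 7567 CPM and RpS20 with 6537 CPM. The least abundant were RpS14a with 1681 CPM, RpS5a with 1326 CPM, RpS6 with 1320 CPM, RpLP0 with 1142 CPM and RpL22 with 680 CPM. The highest level was 18.7 times the lowest there, against 21.5 times in female and 32.0 times in male germ-cell-like cells. RpL22 was lowest in all 3 libraries, with 342 CPM in germ-cell-like cells of females and 245 CPM in those of males. The 10 most abundant members held 23.4% of member UMIs in unsexed, 20.1% in female and 20.7% in male germ-cell-like cells. Nearly every cell had a UMI of nearly every member: in germ-cell-like cells the share with at least 1 UMI was over 99% for 78 unsexed, 77 female and 76 male members. RpL22 was the least often seen, in 99.5% of unsexed, 97.5% of female and 79.3% of male germ-cell-like cells.

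The order of the members by level was nearly the same in germ-cell-like and other cells of a library, and differed between kits. Across the 78 genes, Spearman's rho was 0.98, 0.98 and 0.97 between germ-cell-like and other cells in the unsexed, female and male library, and 0.99 between female and male germ-cell-like cells. It was 0.61 between unsexed and female and 0.58 between unsexed and male germ-cell-like cells. These are descriptions across genes of pairs of libraries and carry no p. RpL39, the most abundant member in the unsexed library, ranked 64th in female cells with 2581 CPM and 69th in male cells with 1985 CPM. RpL29, a short basic protein of the large subunit, had 4766 CPM in unsexed, 1605 CPM in germ-cell-like cells of females and 1302 CPM in those of males. The exons of RpL39 overlap those of RpL12, and those of RpL29 overlap CG9752, on the opposite strand, and whether counting used strand is not given in the sources used here. RpL17, which sits near the tunnel exit, ran the other way, with 3216 CPM, 5901 CPM and 5595 CPM. The log2 ratio of female to unsexed level had a rho of 0.41 with the median transcript length, and that of male to unsexed level a rho of 0.44 (78 genes, 288 to 1512 bases). Genotype, sex, kit version, hours of collection, gene list and the presence of mitochondrial UMIs all differ between the unsexed and the sexed libraries. The software version in the file headers differs too (3.0.1 for the unsexed, 3.1.0 for the sexed libraries). These differences cannot be told apart, so levels are compared below only within a library or between the sexed libraries.

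The first comparison asked how the genes change as germ cells lose pgc. The member share was 1.05 times as high in pgc-low as in pgc-high cells of the unsexed library, a log2 ratio of 0.07, with a log2 ratio of 0.06 among female and 0.09 among male cells. Under TMM scaling, which centres on most genes rather than on the total and moved all ratios down by 0.21, 0.07 and 0.04, the log2 ratio was -0.14 in the unsexed and -0.01 among female and 0.05 among male cells. Among cells of 4000 to 10000 UMIs, an alternative chosen after seeing the data, the unsexed log2 ratio was -0.07, over 72 pgc-low and 101 pgc-high cells. The distance from the median of all genes does not depend on scaling. The median log2 ratio of the 78 members was 0.07, 0.07 and 0.10 in the unsexed, female and male library, against 0.14, 0.08 and 0.04 over all 4885, 5223 and 5140 genes past the size filter. Relative to all genes, the members thus lay 0.06 lower in the unsexed library, 0.01 lower among female and 0.05 higher among male cells. By total UMIs 71, 66 and 67 of the 78 were above 0, and under TMM scaling 1, 38 and 57 were. Over all genes 58.6%, 57.6% and 54.6% were above 0 by total UMIs.

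No member was past 1.5-fold between pgc-low and pgc-high cells in any library, whereas 44.9%, 25.0% and 18.0% of all genes were in the unsexed, female and male library. By direction, 26.2% of all genes were higher and 18.8% lower in unsexed pgc-low cells, 13.9% and 11.1% in female ones, and 8.33% and 9.65% in male ones. Of the unsexed calls over all genes 58.2% were higher in pgc-low cells, and 42.9% with TMM scaling. All 78 members passed the size filter of 20 CPM in 1 of both groups and 100 UMIs over both. Of them, 59 had a log2 ratio above 0 in all 3 libraries by total UMIs and 3 (RpS3A, RpL5 and RpL21) below 0 in all 3. The same count over all genes is not given here.

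The member that differed most by stage in the unsexed and female libraries was RpS5a, at X 17143588 to 17148264 on build BDGP6, whose protein belongs to the head of the small subunit. In the unsexed library it had 1113 CPM in pgc-high, 1251 CPM in pgc-middle and 1489 CPM in pgc-low cells, a log2 ratio of 0.42. The female library followed the same course with 1052, 1156 and 1336 CPM and a log2 ratio of 0.34. In the male library, where RpL26 differed most, RpS5a had 896, 849 and 940 CPM and a log2 ratio of 0.07. RpS5a has a copy, RpS5b, that held 72.8%, 70.0% and 65.5% of the UMIs of the pair at the 3 stages of the unsexed library, 69.0%, 65.02% and 62.8% among female and 71.2%, 72.3% and 71.3% among male cells. The summed level of the pair was 4092, 4174 and 4310 CPM over the same stages of the unsexed library.

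Among the other members with the highest stage ratios were RpL40 (log2 ratio 0.18) and RpLP0 (0.17) in the unsexed library, and RpL26 and RpL10Ab in both sexed libraries. RpL40 encodes ubiquitin fused to a large-subunit protein. It had 4379, 4645 and 4956 CPM over the 3 stages of the unsexed library, 2888, 2929 and 3153 CPM among female and 2858, 2849 and 3107 CPM among male cells, and its pgc-low value was the highest of the 3 stages in each. RpL26, a large-subunit protein near the tunnel exit, had log2 ratios of 0.20 among female and 0.28 among male cells, with 4110 against 3568 CPM in pgc-low and pgc-high female cells and 4421 against 3638 CPM in male cells. RpL10Ab, which forms the L1 stalk, had log2 ratios of 0.18 and 0.23 there. The second ubiquitin fusion, RpS27A, differed little, with log2 ratios of 0.04 among unsexed, -0.01 among female and 0.10 among male cells. The target of S6 kinase, RpS6, had 0.04, 0.13 and -0.04.

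RpS3A, a small-subunit protein and the only member on chromosome 4, had the lowest stage ratio of the unsexed and female libraries and was next to RpS19a in the male library. Its level was 6477, 6529 and 6052 CPM over the stages of the unsexed library, 5483, 5186 and 5003 CPM among female and 5633, 5460 and 5326 CPM among male cells. The log2 ratios were -0.10, -0.13 and -0.08. RpL5, which binds 5S ribosomal RNA, had log2 ratios of -0.05, -0.02 and -0.01. Also low were RpLP2 in the unsexed library at -0.04, RpLP0 and RpS29 in the female library at -0.10 and -0.08, and RpS19a and RpS14a in the male library at -0.16 and -0.07.

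The stalk genes did not share a direction. RpLP0 anchors the stalk that recruits elongation factors, and RpLP1 and RpLP2 form its arms. RpLP0 was higher by total UMIs in pgc-low than in pgc-high cells of the unsexed library, where with TMM scaling RpS5a was the only member above 0, with 1216 against 1078 CPM, and lower in the sexed libraries, with 2137 against 2293 CPM in female and 2191 against 2285 CPM in male cells. RpLP1 had 6187 against 6025 CPM in unsexed, 6657 against 5900 CPM in female and 7251 against 6035 CPM in male cells, log2 ratios of 0.04, 0.17 and 0.26. RpLP2 had log2 ratios of -0.04, 0.06 and 0.12.

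**Figure D2:**
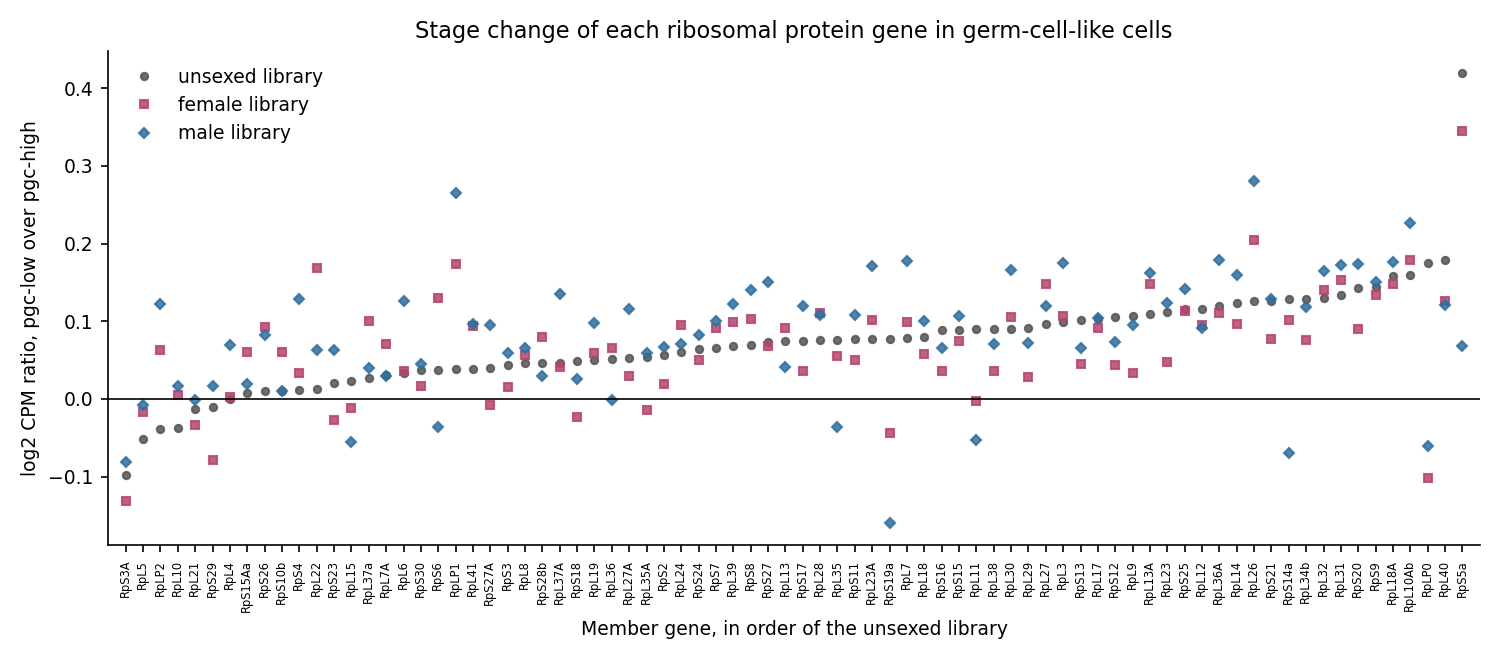
Log2 CPM ratio of pgc-low over pgc-high germ-cell-like cells for each of the 78 genes (1 point per gene and library, ordered by the unsexed library). Most points lie between 0 and 0.2, RpS5a reaches 0.42 and RpS3A is below 0 in all 3 libraries; with TMM scaling 1 unsexed, 38 female and 57 male points lie above 0.

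Other genes of the pathway, taken from lists set by name, were counted in the same way, by total UMIs. Of 26 ribosome assembly genes found, such as Fib (fibrillarin), nop5 and Nop56 of the nucleolus, 12 were higher and 1 lower past 1.5-fold in pgc-low cells of the unsexed library, 4 and 1 among female and 2 and 1 among male cells. Of 27 initiation factor genes 6 were higher and 1 lower in the unsexed library, 1 and 2 in female and 0 and 1 in male cells, and eIF4G1, the scaffold of the cap-binding complex, was lower in all 3. Of 5 RNA polymerase I genes found, which transcribe ribosomal RNA, 4 were higher and Tif-IA lower in the unsexed library, and in each sexed library 0 were higher and Tif-IA was lower. None of the elongation factor genes past the filter (7 unsexed, 8 female and 8 male) was past 1.5-fold. These counts are to be read against the percentages of all genes above. Of 73 mitochondrial ribosomal protein genes 72 passed the filter, of which 25 were higher and 1 lower in the unsexed library, 7 and 2 in female and 3 and 1 in male cells.

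The second comparison set germ-cell-like cells against other cells of the same library. The member share of germ-cell-like cells was 0.817 times that of other cells in the unsexed library (log2 ratio -0.29), 0.856 times among female (-0.22) and 0.872 times among male cells (-0.20). With TMM scaling, which moved all ratios down by 0.18, 0.56 and 0.21, the log2 ratios were -0.47, -0.78 and -0.41. The median log2 ratio over members was -0.28, -0.21 and -0.20, against 0.47, 0.58 and 0.48 over all 5118, 5585 and 5578 genes, which puts the members 0.74, 0.80 and 0.68 below the median of all genes, whatever the scaling. In each library all 78 members lay below that median. All 78 unsexed members, 73 female and 64 male members had a log2 ratio below 0 by total UMIs, and those 64 were below 0 in all 3 libraries. Over all genes 64.4%, 66.7% and 65.9% were above 0 by total UMIs.

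Few members were past 1.5-fold: 2 were lower in germ-cell-like cells of the unsexed library (RpS5a and RpLP0), none was in the female or male library, and 66.7%, 70.5% and 66.9% of all genes were past it in the unsexed, female and male library. With TMM scaling 11, 71 and 9 members were lower by that much, against 63.4%, 64.4% and 63.6% of all genes. By direction, 45.7% of all genes were higher and 21.0% lower in unsexed germ-cell-like cells, 50.3% and 20.2% in female ones, and 46.8% were higher and 1118 of 5578 genes lower in male ones. Of the female calls over all genes 71.4% were higher in germ-cell-like cells, and 49.5% with TMM scaling. The depth of the cells also differed between the classes. Restricted to cells of 4000 to 10000 UMIs in both classes, an alternative chosen after seeing the data, the log2 ratio of the share was -0.30 among unsexed, -0.21 among female and -0.20 among male cells. The female value rests on 56 germ-cell-like cells.

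In the unsexed library RpS5a was furthest below, with 1326 CPM in germ-cell-like and 2444 CPM in other cells, a log2 ratio of -0.88. It had 1280 against 1754 CPM among female (-0.45) and 914 against 1284 CPM among male cells (-0.49). Its copy RpS5b held 68.6% of the UMIs of the pair in germ-cell-like and 51.2% in other cells of the unsexed library, 63.6% and 48.4% among female and 71.5% and 56.7% among male cells. RpLP0 had 1142 CPM in germ-cell-like and 1825 CPM in other cells of the unsexed library (-0.68), and differed little in the sexed libraries, with 2154 against 2319 CPM in female and 2201 against 2297 CPM in male cells. RpLP1 was low in all 3, with log2 ratios of -0.53, -0.43 and -0.46. RpL37A, with 1939 against 2641 CPM in female and 1827 against 2580 CPM in male cells, and RpS2, with 5406 against 7377 CPM and 5993 against 8118 CPM, were near the low end of both sexed libraries. RpL7A had 4101 against 5678 CPM in male cells (-0.47).

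At the other end, 5 genes were higher in germ-cell-like than in other cells of both sexed libraries by total UMIs, though with TMM scaling no female member and 6 male members were. RpS19a, whose human counterpart is mutated in Diamond-Blackfan anaemia, had 2970 CPM in germ-cell-like and 2720 CPM in other cells of the female library (log2 ratio 0.13) and 2537 against 1859 CPM in the male library (0.45). RpL5 had 2147 against 1958 CPM (0.13) and 1957 against 1622 CPM (0.27). RpL41 had log2 ratios of 0.10 and 0.22, and RpL29 of 0.08 and 0.35. The fifth, RpL30, had 0.04 and 0.11. In the unsexed library the same 5 genes were below 0, at -0.28 for RpS19a, -0.38 for RpL5, -0.12 for RpL41, -0.10 for RpL29 and -0.21 for RpL30. RpS3, RpS16 and RpL4 were nearest to no change there, at -0.02, -0.09 and -0.10. The log2 ratios of the 78 members had a Spearman's rho of 0.81 between the female and male libraries, 0.58 between unsexed and female and 0.48 between unsexed and male, across genes and with no p.

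**Figure D3:**
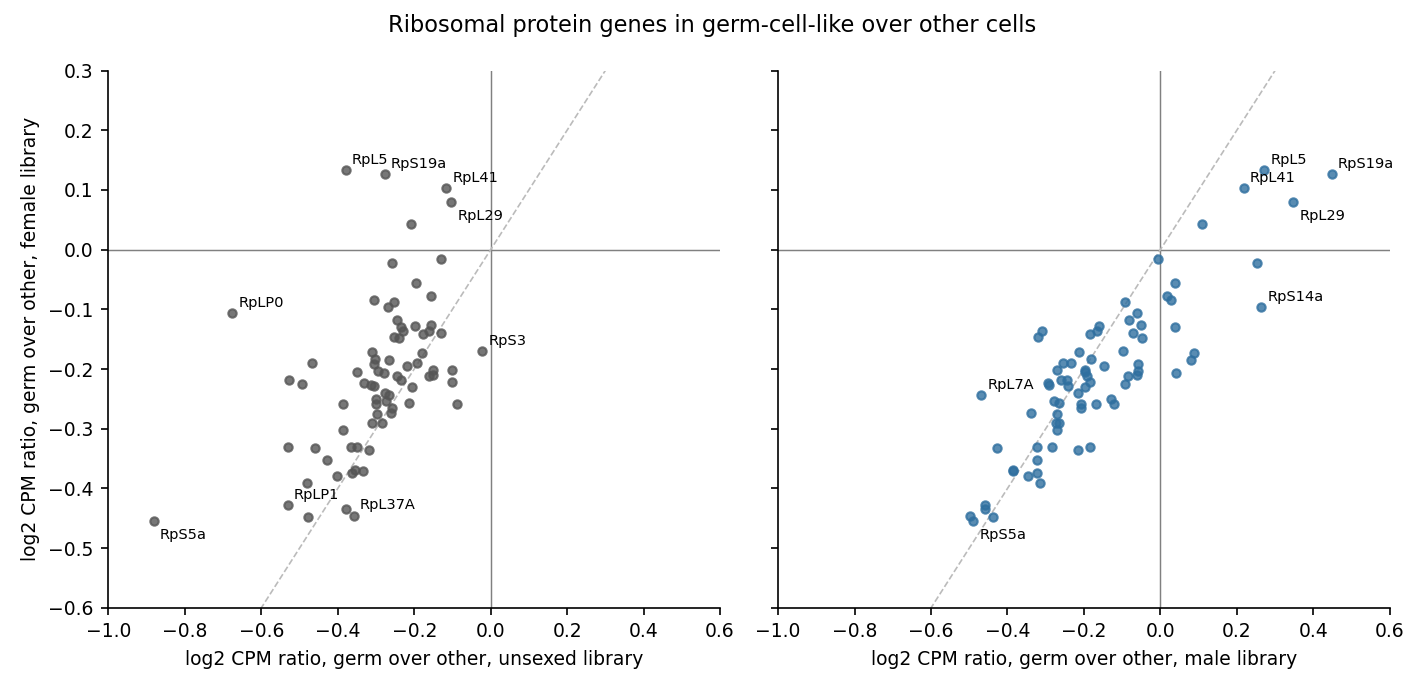
Log2 CPM ratio of germ-cell-like over other cells for the 78 genes in the female library (vertical axis) against the unsexed and the male library (horizontal axes); the dashed line marks equal values. Nearly all genes lie below 0 on both axes, RpS5a is lowest in the unsexed and female and RpL37A in the male library, and RpS19a, RpL5, RpL41, RpL29 and RpL30 are above 0 in the female and male but not the unsexed library; with TMM scaling no unsexed or female and 6 male genes lie above 0.

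Other genes of translation are given by total UMIs. Of the mitochondrial ribosomal protein genes 54 of 72 among unsexed, 63 among female and 60 among male cells were higher past 1.5-fold in germ-cell-like cells, against 45.7%, 50.3% and 46.8% of all genes. Their median log2 ratios were 0.94, 1.33 and 1.04, against 0.47, 0.58 and 0.48 over all genes. Ribosome assembly genes had 9, 13 and 17 of 26 higher and 1 lower in each library, with medians of 0.41, 0.56 and 0.74, so the unsexed and female medians were below those of all genes. With TMM scaling the assembly medians were 0.24, 0.0022 and 0.53. Initiation factor genes had medians of 0.13, 0.14 and 0.12, below those of all genes in each library, and of -0.04, -0.42 and -0.09 with TMM scaling. The share of UMIs from elongation factor genes, like that of the members, was lower in germ-cell-like cells, at 2.17% against 2.75% among unsexed, 2.13% against 2.63% among female and 2.16% against 2.71% among male cells.

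Other cells were not uniform. The member share ran from 30.5% to 44.8% over the 21 other clusters of the female library, from 30.7% to 41.6% over the 9 of the male and from 33.2% to 41.7% over the 4 of the unsexed library. Germ-cell-like clusters lay between 30.6% and 34.2% in the unsexed (10 clusters), at 31.3% and 31.4% among female (2 clusters) and between 28.9% and 33.4% among male cells (8 clusters). An unsexed germ-cell-like cluster of 236 cells, led by dhd, BigH1 and sisA and without pgc among its leading genes, had 34.1%. The part of these cells in the stage values was not tested. Clusters with neural genes were in the lower part of the range: the Neurons-like clusters had 31.0% in the female, 31.4% in the male and 33.2% in the unsexed library, the Neuroblasts-like cluster of the male library had 30.7%, and a female cluster with Oli, wor and nerfin-1 among its leading genes had 31.7%. The CNS midline-like cluster of the female library had 34.2%, a female cluster with ac, sc and SoxN among its leading genes 33.4%, and one led by cato and sens 33.2%. A cluster led by CG12011 had 30.5% among female and 31.1% among male cells. Higher shares were found, at 39.5% for the Mesoderm-like and 41.3% for the Fusion-competent myoblasts-like cluster of the female library. The highest values were 44.8% in a female cluster led by apolpp and glob1, 43.7% in one led by TpnC73F and Mp20, and 42.6% in one led by PPO2 and PPO1. The male cluster with apolpp among its leading genes was also the highest of its library, at 41.6%. Clusters were made within each library and without the members, and cluster depth differed, from medians of 3543 to 11264 UMIs per cell over the other clusters of the female library.

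**Figure D4:**
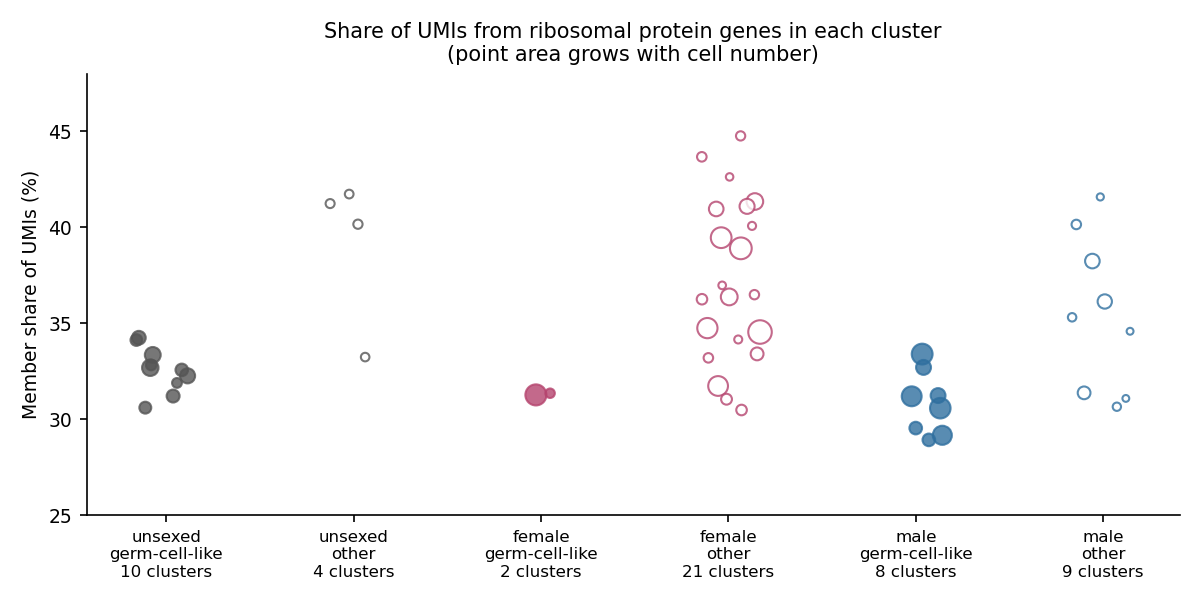
Share of UMIs from the 78 genes (percent) in each cluster of the 3 libraries, germ-cell-like clusters filled and other clusters open, with point area growing with cell number. Germ-cell-like clusters lie between 28.9% and 34.2%, and the female other clusters between 30.5% and 44.8%; the vertical axis starts at 25%.

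Most members kept a steady part of the member UMIs across these clusters, and a few did not. Over the 17 female other clusters of at least 100 cells, RpS5a varied most, with an SD of log2 parts of 0.29, and RpLP0 next with 0.23. RpS5a held 0.746% of member UMIs in the cluster led by apolpp, where it was highest, and 0.359% in the cluster led by CG12011, where it was lowest. RpLP0 was highest and lowest in the same clusters, with 0.958% and 0.532%. RpS5a and RpLP0 were also the most variable over the 4 male other clusters of that size.

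The third comparison set female against male cells of the same hours and kit. The member share was 31.3% in female and 31.0% in male germ-cell-like cells, a log2 ratio of 0.01, and 31.8% and 31.7% in pgc-low cells, where the counting interval of the ratio included no difference. In other cells it was 36.5% in female and 35.6% in male cells, a log2 ratio of 0.04. With TMM scaling, which moved all ratios up by 0.19 in other cells, the log2 ratio was 0.05 in germ-cell-like and 0.22 in other cells. The members' median lay 0.07 above that of all genes in germ-cell-like cells and 0.10 above it in other cells, whatever the scaling. No member was past 1.5-fold in germ-cell-like cells, against 8.31% of 5114 genes (8.08% higher and 0.235% lower in females), and none in pgc-low cells, against 10.1% (9.88% higher and 0.176% lower). In other cells 1 member, RpL22, was higher in female cells past that limit, against 11.6% of 4656 genes (4.75% higher and 6.85% lower). Of the calls over all genes in other cells 40.9% were higher in female cells, and 74.3% with TMM scaling. The makeup of the other cells differed between the sorts, with 8360 female and 1482 male cells, and its part in these values was not tested.

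Within the germ-cell-like cells, X-linked members stood above autosomal ones. Males have 1 X chromosome and females have 2, and somatic cells of males raise X-linked transcription through the dosage compensation complex. The 13 X-linked members had a median log2 ratio of female over male of 0.15, with 12 above 0, and the 65 autosomal members a median of -0.03, with 28 above 0. The difference of 0.18 was smaller than that of the 899 X-linked and 4095 autosomal genes that are no members, 0.64. Of those genes 98.3% on the X and 24.3% on autosomes were above 0 by total UMIs. X-linked members together held 4.25% of UMIs in female and 3.88% in male germ-cell-like cells. In other cells the medians were 0.12 and 0.03, a difference of 0.09, against 0.20 in genes that are no members. By total UMIs 8 X-linked (61.5%) and 39 autosomal members (60.0%) were above 0 there. The shares were 63.0% and 36.6% in genes that are no members.

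The difference was larger in later stages, and in other genes it was smaller at higher levels. X-linked members minus autosomal members gave 0.07 in pgc-high, 0.13 in pgc-middle and 0.20 in pgc-low cells, and genes that are no members gave 0.34, 0.56 and 0.69. The genes that are no members were not the same at each stage, with 673, 886 and 900 X-linked ones past the size filter. Depth, which limits the pgc classes, also differed between the sexes. The part of either in the rise was not tested. Among genes that are no members, those with 20 to under 100 CPM differed by 0.69 between X and autosomes in germ-cell-like cells, those with 100 to under 1000 CPM by 0.51 and the 9 X-linked and 57 autosomal genes with at least 1000 CPM by 0.25. Among the X-linked members 11 were above 1000 CPM in both libraries, RpS5a in the female one and RpL22 in neither. Being a member and being abundant cannot be told apart here.

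The X-linked members differed among themselves. RpS5a had 1280 CPM in germ-cell-like cells of females and 914 CPM in those of males, a log2 ratio of 0.49, and RpL22 had 342 against 245 CPM, a ratio of 0.48. RpL36, at 0.25 with 3535 against 2973 CPM, and RpS28b, at 0.25 with 3126 against 2629 CPM, followed. RpS19a had 0.23 with 2970 against 2537 CPM, and RpS14a 0.22 with 2225 against 1906 CPM.

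Values were smaller for RpL35 at 0.15 (2993 against 2693 CPM), RpS6 at 0.12 (2508 against 2302 CPM) and RpL37a at 0.12 (4991 against 4599 CPM). RpL7A and RpL17 were both at 0.08, with 4340 against 4101 CPM and 5901 against 5595 CPM. RpS15Aa at 0.02 (3738 against 3691 CPM) and RpS10b at -0.02 (4504 against 4567 CPM) differed least. The X-linked members of lowest level, RpL22 and RpS5a, had the highest ratios. RpL22 also has a germline copy: RpL22-like held 22.4% of the UMIs of the pair in female and 32.6% in male germ-cell-like cells, against 0.228% and 3.42% in other cells. The exons of RpL22 overlap those of lncRNA:CR42491 on the same strand, those of RpS6 overlap CR33222 on the same strand, and those of RpS28b and RpS10b overlap CG15317 and CG14220 on the opposite strand. How such reads were counted is not given in the sources used here.

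Some autosomal members also differed between the libraries, in both classes of cells. RpL39 had 2581 CPM in germ-cell-like cells of females and 1985 CPM in those of males (log2 ratio 0.38), and 2682 against 1933 CPM in other cells (0.47). RpL29 had 0.30 and 0.57, and RpL41 had 0.27 and 0.39. These are the 3 shortest members, with median transcripts of 288, 329 and 320 bases. At the other end RpL7 had 4752 against 5340 CPM in germ-cell-like cells, a ratio of -0.17, and -0.18 in other cells. RpS2 had -0.15 and -0.14, and RpS7 had -0.12 and -0.11, all by total UMIs, since with TMM scaling all 78 members were above 0 in other cells. Over the 65 autosomal members the log2 ratio of female to male had a Spearman's rho of -0.46 with transcript length in germ-cell-like and -0.35 in other cells, across genes of 1 pair of libraries. Depth per cell differed between these libraries and its part in these values was not tested. The median transcript length was 776 bases for the X-linked and 682.5 bases for the autosomal members. The part of length in the X-linked values was not tested.

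**Figure D5:**
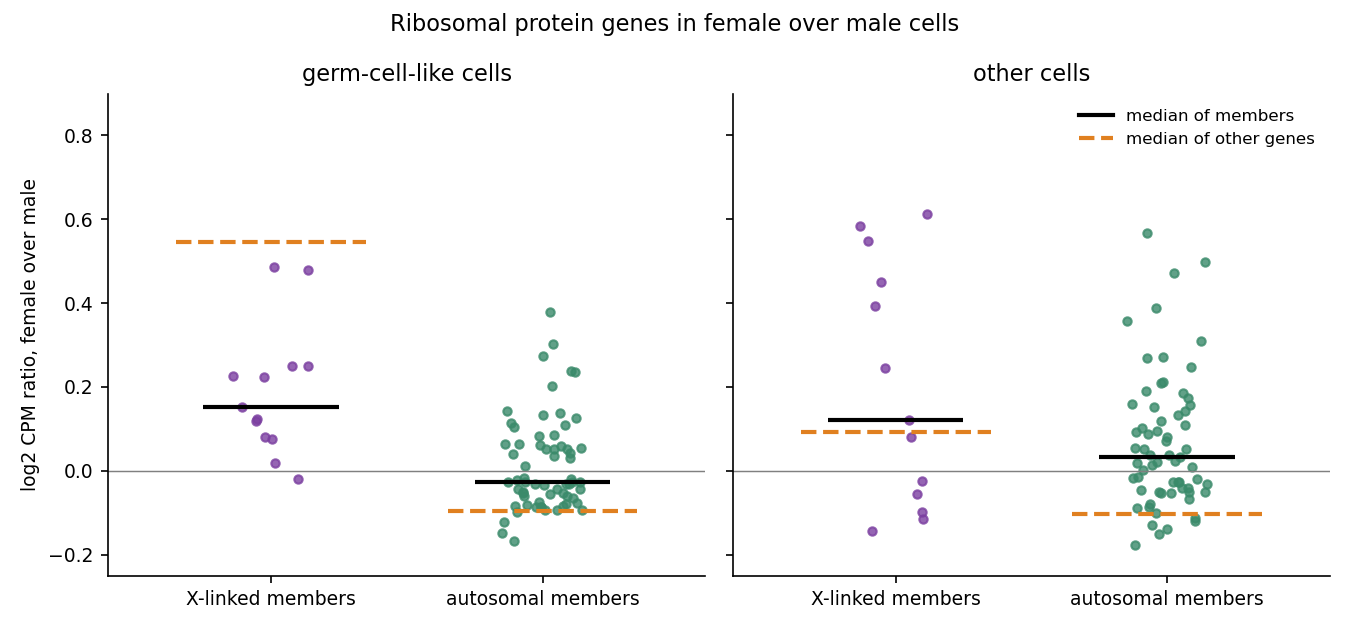
Log2 CPM ratio of female over male for the 13 X-linked and 65 autosomal members in germ-cell-like and in other cells, with the median of the members (solid) and of genes that are no members on the same chromosomes (dashed). In germ-cell-like cells the X-linked members have a median of 0.15 and the other X-linked genes 0.55; in other cells the medians are 0.12 and 0.09.

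With 47 large-subunit and 31 small-subunit genes, equal UMIs per gene would give a ratio of 1.52 between the subunits. The ratio of summed RpL to RpS UMIs was 1.59 in unsexed, 1.43 in female and 1.43 in male germ-cell-like cells. In other cells it was 1.57, 1.41 and 1.40. Over the 3 pgc levels the ratio was 1.58, 1.59 and 1.59 among unsexed, 1.40, 1.42 and 1.44 among female and 1.40, 1.42 and 1.43 among male cells.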

How the data were processed

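Per the labels, GFP-sorted cells of 3 libraries were sequenced with 10x Chromium 3' kits. The authors deposited UMI count matrices, made with Cell Ranger on BDGP6 per the submitters' processing notes. How strand was used in counting is not given in the sources used here. Totals were 58378567 UMIs among unsexed, 109431813 among female and 47345241 among male cells.

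Barcodes with at least 1000 UMIs, at least 500 genes and no more than 20% of UMIs from mitochondrial genes stayed in, and the barcodes with the highest Scrublet scores (0.8% per 1000 cells; 114 unsexed, 845 female and 358 male) were left out. The female and male matrices held 0 mitochondrial UMIs, against 1.79% of UMIs in the unsexed one. The mitochondrial limit thus could not act on the sexed libraries. Scrublet's automatic threshold marked 25, 415 and 2. Clusters (scanpy 1.11.5, leidenalg 0.10.2; 2000 variable genes, 30 components, 15 neighbours, resolution 1) used no RpL or RpS gene. A cluster was germ-cell-like if its germ marker level was above the widest gap between clusters and its 10 leading genes held at least as many germ markers as markers of another type, a scoring set after seeing the data. Unsexed clusters of 544, 501, 446 and 358 cells met the second condition with 0 germ markers among their leading genes. UMIs were summed per class. CPM is per 1000000 non-mitochondrial UMIs, log2 ratios used a pseudocount of 1 CPM, and genes needed 20 CPM in 1 group and 100 UMIs over both. A gene past 1.5-fold was counted as called. TMM factors came from edgeR 4.0.16. Intervals are exact (scipy 1.17.1). The code was tested on simulated data.

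Members named with values were the 5 most and 5 least abundant, the 3 highest and lowest of each comparison, the X-linked members and a few named by role, 36 in all; others named here were chosen after their values were seen. The members and lists were chosen with earlier results of these data known. Alternatives covered doublets, cell classes, stage rules, depth, scaling, filters and thresholds.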

Additional observations from a re-analysis of the deposited data

Results flagged for a closer look

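Some members had a log2 ratio above 0 in 1 library and below 0 in another, by total UMIs, each with a counting interval that left out 0. The difference between libraries was not tested. The share of all genes that met this rule is not given here, so the counts below are not read as a trait of the members. With TMM scaling RpS5a was the only member above 0 by stage in the unsexed library, and the female ratios moved down by 0.069. The positive unsexed stage values below and the positive female values of RpL35 and RpLP2 thus do not hold under it. RpL35 was then below 0 in each library. For pgc-low over pgc-high cells the opposite signs by total UMIs held for 7 of the 78 members, of which 5 are named above. RpL35 had 0.076 among unsexed, 0.055 among female and -0.037 among male cells. RpLP0 had 0.17, -0.10 and -0.061, and RpLP2 had -0.039, 0.063 and 0.12. RpS14a had 0.13, 0.10 and -0.069. RpS19a had 0.078 in the unsexed and -0.16 in the male library.

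For germ-cell-like over other cells opposite signs by total UMIs held for 13 members, of which 7 are named above. With TMM scaling no female and 6 male members were above 0, so the positive female values and the positive male values of RpL39 and RpL40 do not hold under it. RpL29 had -0.10 among unsexed, 0.081 among female and 0.35 among male cells. RpL39 had -0.20, -0.055 and 0.039, and RpL40 had -0.31, -0.084 and 0.028. RpL41 had -0.12, 0.10 and 0.22, and RpL5 had -0.38, 0.13 and 0.27. RpS14a had -0.27, -0.097 and 0.26. RpS19a had -0.28, 0.13 and 0.45.

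The second deposited count table of each sexed library held barcodes that its matrix did not. The member share was 39.8% over 617 such female barcodes and 40.3% over 466 such male barcodes, against 35.2% and 31.7% in the barcodes that the matrix also held. In the barcodes of both, the second table held 1.19 times the matrix UMIs among female and 2.52 times among male cells. Its median per such barcode was 9549 and 17412 UMIs.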

How the results depend on the processing

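No paired analysis was possible because each group had 1 library, and none could be left out. Values are log2 ratios of the member share, for the unsexed, female and male library in turn, unless said otherwise. For pgc-low over pgc-high cells (0.068, 0.064 and 0.091) TMM scaling gave -0.14, -0.0056 and 0.046. Classes set per cell gave 0.070, 0.092 and 0.085, the outermost quartiles by pgc 0.075, 0.089 and 0.11, and those by 6 maternal genes 0.12, 0.17 and 0.19. Equal weight per cell gave 0.061, 0.055 and 0.080, and members without exonic overlap 0.061, 0.055 and 0.082. Thinning to 2000 UMIs gave 0.059 and 0.049 in the unsexed and female library, and cells of 4000 to 10000 UMIs -0.069 and 0.11 there. The female value of 0.11 rests on only 26 pgc-low and 10 pgc-high cells. Keeping doublets gave 0.079 in the unsexed library, and leaving out the 10 most abundant members 0.072 in the unsexed and 0.084 in the male library. For germ-cell-like over other cells (-0.29, -0.22 and -0.20) TMM scaling gave -0.47, -0.78 and -0.41 and kept doublets -0.21, -0.20 and -0.18. With doublets kept, the unsexed library had 3229 germ-cell-like and 185 other cells, against 409 other cells in the main run. Its remaining cells fell in clusters given no class, so the -0.21 does not show the effect of doublets alone. Classes per cell gave -0.27, -0.20 and -0.15, thinning -0.28, -0.24 and -0.23, equal weight -0.26, -0.24 and -0.22, and cells of 4000 to 10000 UMIs -0.30, -0.21 and -0.20. Without the 10 most abundant members it was -0.30 and -0.23 in the unsexed and female library, without exonic overlap -0.22 in the female, and in the other deposited count table -0.19 in the male library. For female over male germ-cell-like cells (0.011) kept doublets gave 0.026, classes per cell 0.047, TMM 0.054 and equal weight 0.016. Leaving out the 10 members gave 0.016, using the other deposited counts 0.0085, cells of 4000 to 10000 UMIs 0.072 and pgc-low cells 0.0016. Only 56 female germ-cell-like cells were of that depth. For other cells (0.036) kept doublets gave 0.049, classes per cell 0.10, TMM 0.22, equal weight 0.029 and leaving out the 10 members 0.045. X-linked minus autosomal members (0.18) was 0.17, 0.15 and 0.19 with kept doublets, classes per cell and no exonic overlap. The looser fold limit of the alternatives called 1 member by stage in the unsexed library (66.9% of all genes), 3 between female and male germ-cell-like cells (18.8%), and 24, 16 and 15 (2 higher and 13 lower) between germ-cell-like and other cells (81.6%, 83.3% and 81.8%). Between germ-cell-like and other cells a 2-fold limit called 0 in the unsexed library (45.1% of all genes). TMM scaling called 11, 71 and 9 there (63.4%, 64.4% and 63.6%). The cause of the reversals was not tested. The other unsexed count table equalled its matrix and gave no alternative. Depth per cell in the matrices limits the stage classes, most in the male library.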

Other observations

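The naming rule leaves out ribosome components with other names. The small-subunit gene sta had 2463 CPM in germ-cell-like and 3933 CPM in other cells of the unsexed library, 4316 against 6016 CPM in the female and 3924 against 5655 CPM in the male library. Rack1, a scaffold protein on the small subunit, had 1987 against 2460 CPM, 2841 against 3517 CPM and 2905 against 3672 CPM. Both were lower in germ-cell-like cells by total UMIs.

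The copies left out by the rule were not uniform. RpL22-like held 0.745%, 3.81% and 11.4% of the UMIs of the RpL22 pair in pgc-high, pgc-middle and pgc-low cells of the unsexed library, 10.3%, 17.6% and 24.4% in the female and 17.9%, 27.0% and 35.4% in the male library.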
